A study of Mus musculus with 8 samples.

Results

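NRF2, encoded by Nfe2l2, is a transcription factor that the adaptor KEAP1 keeps at a low level in resting cells, until electrophiles or oxidants modify KEAP1. Its known targets make glutathione, reduce thioredoxin and peroxiredoxins, supply NADPH and clear quinones and haem. Neutrophils produce reactive oxygen species with the phagocyte oxidase, and these same enzymes are known to limit the damage to the cell that makes them.

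The 36 genes described here are such regulators, targets and antioxidant enzymes, listed by symbol, in 8 libraries of bulk RNA sequencing from mouse neutrophils. They were chosen by a proposal that had earlier results of these libraries in view, the fold changes and levels of aOX40 against IgG among them. The counts and folds of the list therefore describe these samples and support nothing about it as a whole. Of the 36 genes, 35 had a row among the 18187 in the table and 34 had at least 10 counts in at least 3 libraries; the same 34 passed the filter of the test. Me1 was not analysed here. Of the members that passed, catalase (Cat) had the fewest libraries with at least 10 counts, 6 of 8. Outside the minimum lay the endoplasmic reticulum peroxiredoxin Prdx4, with 23 counts in aOX40 replicate 2, 1 count in IgG replicate 5 and 0 in the other libraries.

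There were 2 groups: 3 libraries labelled aOX40 (replicates 1 to 3) and 5 labelled IgG (replicates 2 to 6). All are labelled as neutrophils from treated tumours of the mouse melanoma line B16, and the groups share everything else the labels state. OX40, encoded by Tnfrsf4, is a costimulatory molecule of activated T cells, and IgG is the antibody class named for the comparison group. The labels state neither strain, age, dose and time, nor how neutrophils were isolated, nor if the libraries are from different mice. The p-values measure only the spread among the 8 libraries, and that spread may be technical.

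Library totals were 69.6 to 73.5 M counts in aOX40 and 52.7 to 63.2 M in IgG, without overlap, so depth and group cannot be told apart. Neutrophil markers, 13 of 14 with a row, summed to between 17049 and 24805 CPM in aOX40 (CPM being counts scaled to an equal library total with TMM factors) and between 16258 and 28116 in IgG. Of the primary granule genes on that list, Mpo was at 0 CPM in 6 libraries and below 1 in the rest, and Elane was not analysed here. Cd177 and Mmp8 were above every IgG library in all 3 aOX40 libraries, and the other 11 neutrophil markers overlapped. Macrophage and monocyte markers, 10 of 12 with a row, summed to 1083 to 1527 CPM in aOX40 and 1403 to 2037 in IgG. Within the latter list Adgre1 and Csf1r were above every IgG library in all 3 aOX40 libraries, Cd68 was below every IgG library, and C1qa, C1qb and C1qc stayed under 2 CPM. Of the other markers, Col1a1 of fibroblasts (1.22 to 2.21 against 3.42 to 32.4 CPM) and Cd3d of T cells (0.237 to 0.987 against 1.06 to 1.71 CPM) were below every IgG library. The other 4 T cell markers with a row overlapped. Together the 5 summed to 0.886 to 3.70 CPM in aOX40 and 1.17 to 2.36 CPM in IgG, with overlap. The other 2 fibroblast and pericyte markers with a row overlapped. Summed, the 3 with a row were at 1.22 to 3.63 CPM in aOX40 and 3.45 to 32.4 CPM in IgG, with overlap. The endothelial Pecam1 overlapped, at 3.23 to 5.78 against 5.46 to 27.5 CPM. Messenger RNA of the mitochondrial genome made up 0.0998% to 0.152% of counts in aOX40 and 0.0510% to 0.0811% in IgG, without overlap. The part of depth, of these markers and of the mitochondrial share in the results below was not tested. In bulk samples, fewer cells of a type and less RNA per cell cannot be told apart.

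The comparison asks how neutrophil transcripts differ between tumours labelled aOX40 treated and IgG treated. In the antioxidant genes, 5 of the 34 tested passed an adjusted p of 0.05 as higher in aOX40 and 0 as lower (edgeR's quasi-likelihood test, Benjamini-Hochberg adjustment over 13278 genes). They were Prdx1, Pgd, Blvrb, Srxn1 and Gclm, with log2 fold changes between 1.29 and 2.53. The background was 0.821% of all genes called higher, 1.59% called lower and 2.41% in either direction. At an unadjusted p below 0.05, edgeR had 15 members higher and 2 lower, where 7.79% of all genes were higher and 10% lower. All 3 aOX40 libraries were above all 5 IgG libraries in 12 members, where 8.22% of all genes tested did so, and below them in 2, where 7.75% did so. The log2 fold change was above 0 in 28 of 34 members and in 52.1% of all genes, with medians of 0.51 and 0.05. Since the list was proposed with this contrast known, nothing is read from these shares.

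The count of called members depended on single libraries and on the tool. Without aOX40 replicate 2 or without aOX40 replicate 3 edgeR called 0 members, and 0 of all genes. At an unadjusted p below 0.05 these fits had 11 and 10 members higher and 1 lower each, and 1604 and 1905 of all genes in either direction. It called 2 members higher without aOX40 replicate 1, where 44 of 14238 genes tested were called higher. Without IgG replicate 3 it called 1, where 9 of 12947 genes were. Without IgG replicate 2, 4, 5 or 6 it called 3 members higher each. Of all genes, these fits called 52 of 13032, 74 of 13000, 30 of 12941 and 26 of 13034 higher. DESeq2 called 10 members higher and 2 lower, where it called 4.17% and 7.83% of the 12139 genes to which it gave an adjusted p. Limma voom called 7 higher and 0 lower, with 2.52% and 2.93% of all genes. With legacy set to FALSE, another form of the same fit, edgeR called 8 higher and 0 lower, with 2.64% and 3% of all genes.

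**Figure D1:**
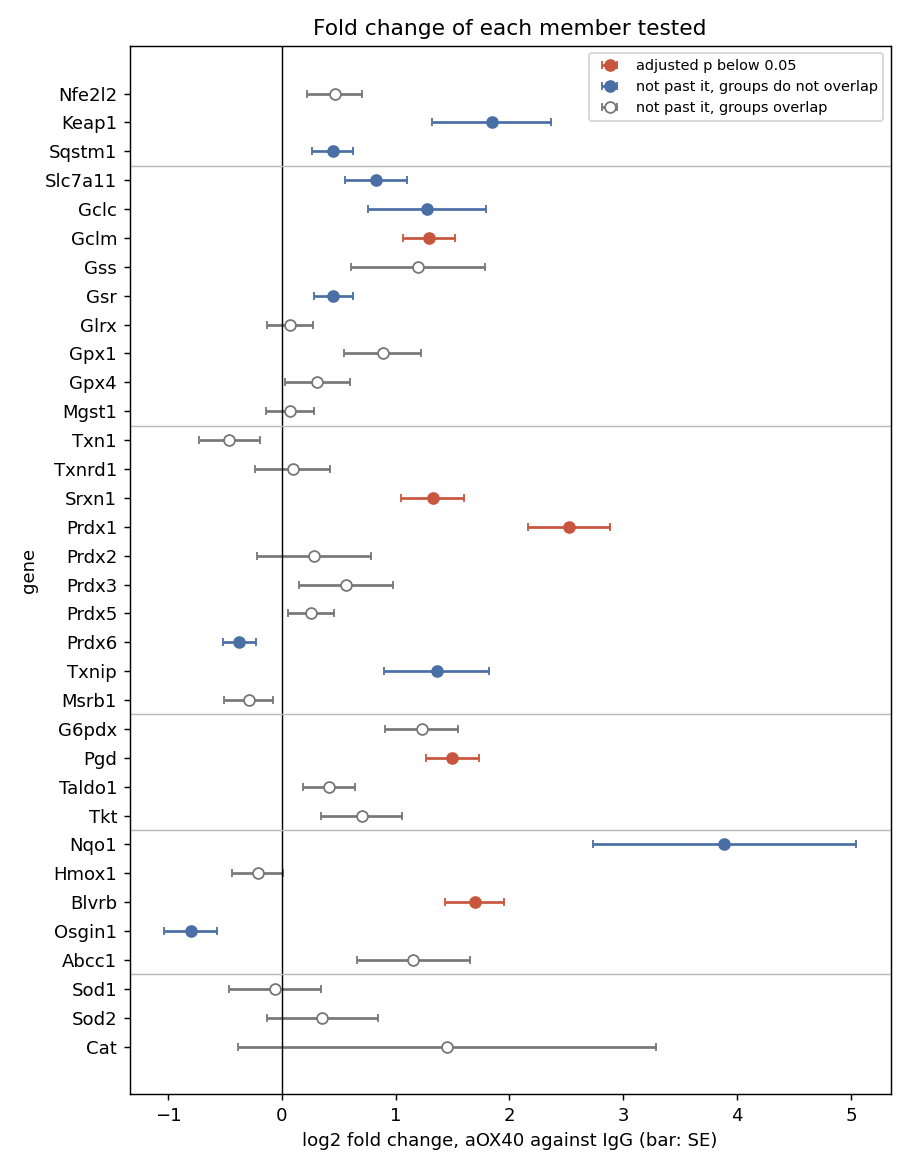
Log2 fold change of aOX40 against IgG (horizontal axis, bars are standard errors) for the 34 members tested, ordered by role. Red points passed an adjusted p of 0.05; blue points did not, although the groups did not overlap; open points mark groups that overlap. Nqo1 has the largest fold, 3.89, and a wide standard error of 1.16.

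Among the peroxiredoxins, the enzymes that reduce peroxides with thiols, Prdx1 had the smallest adjusted p. Prdx1 (ENSMUSG00000028691) lies on the + strand of chromosome 4, at 116685544 to 116700822 (GRCm38, the assembly of mm10). It stood at 178, 186 and 159 CPM in aOX40 replicates 1, 2 and 3 and at 26.0, 37.6, 11.1, 39.3 and 37.5 CPM in IgG replicates 2 to 6. Every aOX40 library was therefore above 150 CPM and every IgG library below 40. The means were 175 ± 14.1 CPM (SD, n = 3) and 30.3 ± 12.0 CPM (SD, n = 5), which edgeR put at 2.53 on the log2 scale with an SE of 0.36 and an adjusted p = 0.0217. Prdx1 was called in 15 of 19 alternative analyses. With 1 library left out, it was not called without aOX40 replicate 2, aOX40 replicate 3 or IgG replicate 3.

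Srxn1, sulfiredoxin (chromosome 2, 152105516 to 152111376, + strand), repairs overoxidised peroxiredoxins. Its levels were 75.4, 88.1 and 107 CPM in aOX40 and 28.6, 59.3, 33.3, 28.6 and 29.9 CPM in IgG. IgG replicate 3 stood apart from the other 4 IgG libraries, and still below every aOX40 library. Means of 90.2 ± 15.9 (SD, n = 3) and 35.9 ± 13.2 CPM (SD, n = 5) differed by 1.33 on the log2 scale (SE 0.28), with an adjusted p = 0.0438 in edgeR. This was the largest adjusted p of the 5 calls, and the call held in 10 of 19 alternatives. Of the fits with 1 library left out, only that without IgG replicate 3 called it.

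The other peroxiredoxins did not pass. Prdx5, an enzyme of mitochondria, peroxisomes and cytosol, and Prdx6, an enzyme with phospholipase activity besides, carried most of the family's messenger RNA in both groups. Per kb of exon (CPM divided by the merged exon length in kb), Prdx5 was 693 ± 87.3 in IgG and 825 ± 221 in aOX40, and Prdx6 293 ± 25.7 and 226 ± 3.36. Prdx1 was 9.95 ± 3.94 in IgG and 57.3 ± 4.65 in aOX40 on that scale. Prdx6 in CPM was 1096, 1091 and 1066 in aOX40 and between 1222 and 1557 in IgG, so that the groups did not overlap. The fold was -0.37 in log2 units (SE 0.15) with an adjusted p = 0.214 in edgeR, while DESeq2 gave an adjusted p of 0.0181, within a range of 0.0181 to 0.845 over the alternatives. Prdx2 (log2 fold change 0.28), the mitochondrial Prdx3 (0.56) and Prdx5 (0.25) overlapped between groups. Junb lies on the opposite strand over exon sequence of Prdx2, at means of 5376 CPM in aOX40 and 3577 CPM in IgG, and Trmt112 overlaps Prdx5. No source used here says whether reads were counted by strand, so reads of such pairs could not be told apart.

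As a share of Prdx1 to Prdx6 per kb, Prdx1 made up 4.26%, 6.21% and 5.29% in aOX40 replicates 1 to 3. In IgG replicates 2 to 6 it made up 0.894%, 1.15%, 0.443%, 1.24% and 1.11%. The share of Prdx6 was 16.6% to 23.1% in aOX40 and 28.0% to 31.0% in IgG, while that of Prdx5 was 70.2% to 78.6% and 67.9% to 70.4%. Prdx1 thus stayed a minor transcript of the family in all 8 libraries while its share differed without overlap. These shares come from the contrast that the list was chosen with, and are given without a test.

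**Figure D2:**
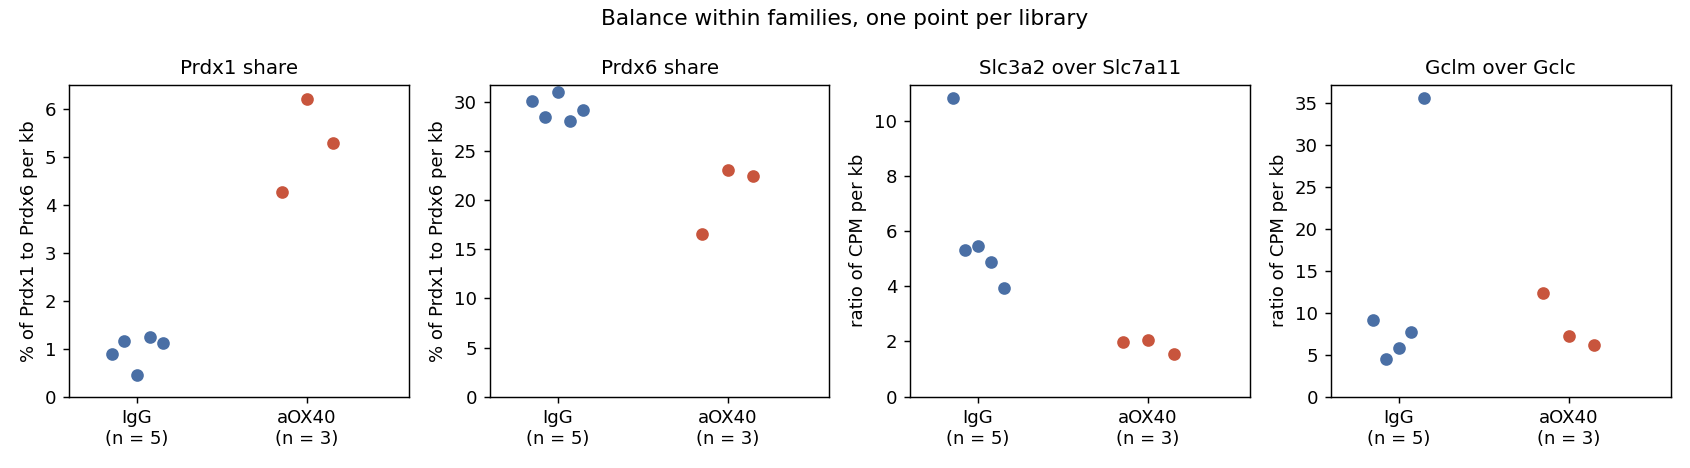
Balances within families in 4 panels, 1 point per library (IgG n = 5, aOX40 n = 3): the share of Prdx1 and of Prdx6 among Prdx1 to Prdx6 per kb (percent), and the ratios of Slc3a2 to Slc7a11 and of Gclm to Gclc in CPM per kb. The groups do not overlap in the first 3 panels and overlap in the last, where IgG replicate 6 lies at 35.5.

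In the thioredoxin branch, no other member passed. Txn1, thioredoxin itself, was at 282, 148 and 159 CPM in aOX40 against 219 to 349 CPM in IgG, a log2 difference of -0.46 with an SE of 0.27. Txnrd1, the selenoenzyme that reduces it, had a log2 fold change of 0.09 (SE 0.33) and ran from 112 to 284 CPM within aOX40 alone. Its fold turned below 0 without aOX40 replicate 3 or IgG replicate 2. Msrb1, which reduces methionine sulfoxide, was at 531, 322 and 309 CPM in aOX40 and between 433 and 575 CPM in IgG.

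Txnip binds and inhibits thioredoxin and also restrains glucose uptake. It stood at 465, 621 and 477 CPM in aOX40 and at 53.3, 241, 146, 319 and 255 CPM in IgG, without overlap. The IgG libraries were spread widely, and with a log2 difference of 1.36 and an SE of 0.46 the adjusted p = 0.160 in edgeR missed the threshold. Over the alternatives its adjusted p ran from 0.0253 to 0.440.

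Glutathione synthesis begins with cystine uptake and with glutamate-cysteine ligase, a pair of a catalytic subunit (Gclc) and a modifier subunit (Gclm). Gclm (chromosome 3, 122245557 to 122270732, + strand) was at 167, 185 and 125 CPM in aOX40 and at 49.7, 58.4, 53.8, 80.9 and 82.0 CPM in IgG. All aOX40 libraries were above 120 CPM and all IgG libraries below 85. The means were 159 ± 30.6 (SD, n = 3) and 64.9 ± 15.4 CPM (SD, n = 5). In edgeR the log2 difference was 1.29, with an SE of 0.23 and an adjusted p = 0.0316. Gclm was called in 11 of 19 alternatives. Of the fits with 1 library left out, only that without IgG replicate 6 called it. Gm6061 and Gm17494 overlap exons of Gclm, and some reads may be shared between them. Gm6061 had means of 1.18 CPM in aOX40 and 0.531 CPM in IgG, with overlap of the groups. Gm17494 had means of 14.9 and 9.48 CPM, and all its aOX40 libraries were above all IgG libraries.

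Gclc was at 8.11, 15.2 and 12.3 CPM in aOX40 and at 3.26, 7.91, 5.62, 6.34 and 1.38 CPM in IgG. Its fold was like that of Gclm, at 1.28 on the log2 scale, but with an SE of 0.52 it did not pass (adjusted p = 0.238, edgeR). All 3 aOX40 libraries were above all IgG libraries, narrowly so for aOX40 replicate 1 against IgG replicate 3. Per kb, Gclm exceeded Gclc in every library, by 6.09 to 12.3 times in aOX40 and by 4.42 to 35.5 times in IgG, with overlap. Gss, which completes glutathione, was low as well, at 16.5 ± 4.56 CPM (SD, n = 3) against 7.18 ± 4.65 CPM (SD, n = 5), and the groups overlapped.

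Slc7a11, the cystine importer subunit xCT, was at 1231, 906 and 1480 CPM in aOX40 and at 395, 672, 854, 621 and 852 CPM in IgG. The groups did not overlap, and IgG replicates 4 and 6 came close to aOX40 replicate 2. A log2 difference of 0.83 with an SE of 0.27 did not pass in edgeR, at an adjusted p = 0.147 and 0.0383 to 0.394 over the alternatives. Its partner chain Slc3a2, named here after its values were seen, went the other way at 615, 473 and 584 CPM in aOX40 against 768 to 1184 CPM in IgG. Slc3a2 did not pass either (edgeR: -0.78 on the log2 scale, SE 0.20, adjusted p = 0.0780). The ratio of Slc3a2 to Slc7a11 per kb was 1.97, 2.06 and 1.56 in aOX40 and 10.8, 5.30, 5.47, 4.87 and 3.92 in IgG, without overlap and without a test.

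No enzyme that uses or regenerates glutathione passed in edgeR, with Gsr and Gpx1 at an unadjusted p of 0.0250 and 0.0263; of 19 alternatives, 1 called Gsr, edgeR scaled by total counts alone. Gsr, glutathione reductase, was above all IgG libraries in all 3 aOX40 libraries (1080, 1169 and 1161 CPM against 731 to 1071 CPM), narrowly so against IgG replicate 4. Its log2 difference of 0.45 (SE 0.17) had an adjusted p = 0.196 in edgeR. Gpx1, the main cytosolic glutathione peroxidase, was at 719, 670 and 381 CPM against 174 to 485 CPM (log2 fold change 0.89, SE 0.33). Its level in aOX40 replicate 3 lay inside the IgG range. Gpx4, which reduces lipid peroxides, had a log2 fold change of 0.31 (SE 0.28); it has 2 near copies, and the counts table lists 1 of them, so reads of Gpx4 are uncertain. Glrx, glutaredoxin, and Mgst1, a microsomal glutathione transferase, were near 0 at 0.07 each, with SEs of 0.20 and 0.21.

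**Figure D3:**
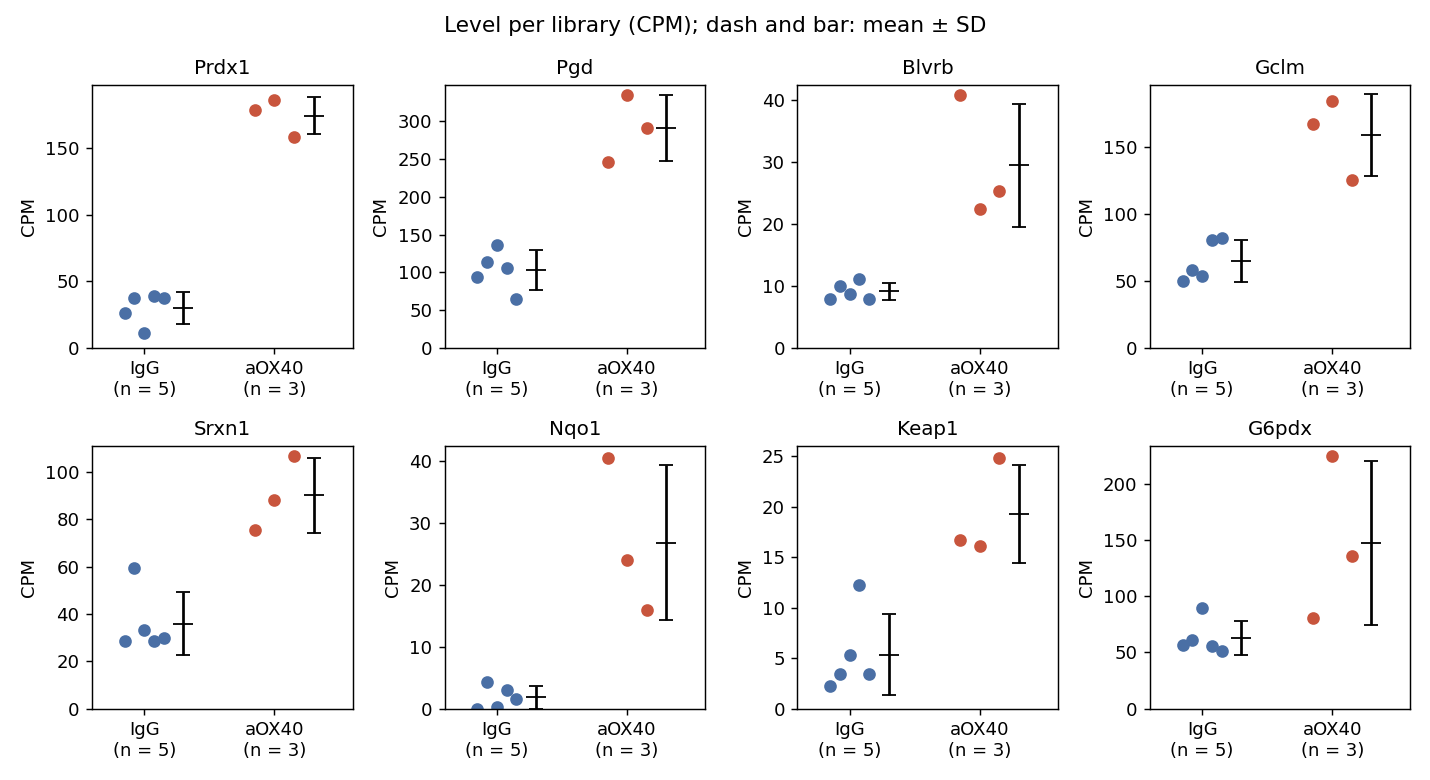
Level in CPM (vertical axis from 0) of 8 members in each library, with the mean and SD beside the points. The first 5 genes passed the test; Nqo1, Keap1 and G6pdx did not, and of these 3 only G6pdx has an aOX40 library, replicate 1 at 80.4 CPM, inside the IgG range.

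NADPH, which glutathione and thioredoxin reductases consume, is made by the oxidative branch of the pentose phosphate pathway. Pgd, its later dehydrogenase (chromosome 4, 149149991 to 149166771, - strand), was at 246, 334 and 292 CPM in aOX40 and at 94.2, 113, 136, 106 and 65.1 CPM in IgG. The lowest aOX40 library was well above the highest IgG library. Means of 291 ± 43.9 (SD, n = 3) and 103 ± 26.1 CPM (SD, n = 5) gave a log2 difference of 1.50 in edgeR. The SE was 0.23 and the adjusted p = 0.0271, and Pgd was called in 14 of 19 alternatives. With 1 library left out, it was not called without aOX40 replicate 2 or 3, or without IgG replicate 3 or 5.

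G6pdx, the first and rate-limiting dehydrogenase, was at 80.4, 225 and 136 CPM in aOX40 and at 56.6, 61.0, 89.6, 55.8 and 51.1 CPM in IgG. Its aOX40 libraries were spread widely, and replicate 1 lay below IgG replicate 4. On the log2 scale the difference was 1.23 (SE 0.32), with an adjusted p = 0.0824 in edgeR and 0.00670 to 0.373 over the alternatives. Ikbkg, a subunit of the NF-kB kinase complex, overlaps its exons on the opposite strand at means of 24.4 CPM in aOX40 and 8.56 CPM in IgG. Taldo1 and Tkt, which encode enzymes of the non-oxidative branch, overlapped between groups, with log2 fold changes of 0.41 (SE 0.23) and 0.70 (SE 0.35).

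Blvrb (chromosome 7, 27447978 to 27466144, + strand) reduces biliverdin and flavins downstream of haem breakdown. It stood at 40.8, 22.4 and 25.3 CPM in aOX40 and at 7.90, 9.98, 8.71, 11.1 and 7.83 CPM in IgG. The IgG libraries were close together and the lowest aOX40 library was above them all. The means were 29.5 ± 9.92 (SD, n = 3) and 9.11 ± 1.43 CPM (SD, n = 5). In edgeR the log2 difference was 1.69, with an SE of 0.26 and an adjusted p = 0.0262. Blvrb was called in 13 of 19 alternatives. With 1 library left out, it was not called without any single aOX40 library, or without IgG replicate 3 or 6.

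Nqo1 (chromosome 8, 107388225 to 107403206, - strand), the quinone reductase often used as a readout of NRF2, had the largest fold of all 34 members. It was at 40.5, 24.0 and 15.9 CPM in aOX40 and at 0, 4.23, 0.223, 3.03 and 1.54 CPM in IgG. In deposited counts this was 3007, 2143 and 1271 against 0 to 219, so every aOX40 library stood far above every IgG library, and IgG replicate 2 had no count. The log2 difference was 3.89 with an SE of 1.16, and edgeR gave an adjusted p of 0.115, short of the threshold. DESeq2 (0.00640), limma voom (0.0462) and edgeR with legacy set to FALSE (0.00996) called Nqo1, and over 18 alternatives the adjusted p ran from 0.00640 to 0.488.

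Hmox1, the inducible haem oxygenase, and Osgin1, an oxidative stress-induced growth inhibitor, are also known NRF2 targets and were not higher in aOX40. Hmox1 was at 714, 588 and 497 CPM in aOX40 and between 482 and 858 CPM in IgG, a log2 difference of -0.21 with an SE of 0.22, or 0.10 when scaled by total counts alone. Osgin1 was at 267, 308 and 373 CPM in aOX40 and at 687, 607, 617, 385 and 455 CPM in IgG. All 3 aOX40 libraries were below all IgG libraries, narrowly so for aOX40 replicate 3 against IgG replicate 5. The difference of -0.80 on the log2 scale (SE 0.23) did not pass in edgeR (adjusted p = 0.108) and passed in DESeq2 (0.0118), with 0.0118 to 0.373 over the alternatives. Abcc1, an exporter of glutathione conjugates, was at 41.4, 21.7 and 35.3 CPM against 3.55 to 22.0 CPM (log2 fold change 1.16, SE 0.50), with overlap.

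The regulators themselves did not pass. Nfe2l2 was at 664, 637 and 820 CPM in aOX40 and at 490, 426, 752, 364 and 533 CPM in IgG, which edgeR put at 0.46 in log2 units with an SE of 0.24 and an adjusted p = 0.369. Only IgG replicate 4 reached into the aOX40 range. Keap1, the adaptor that targets NRF2 for degradation, was at 16.7, 16.2 and 24.9 CPM in aOX40 and at 2.26, 3.47, 5.36, 12.3 and 3.40 CPM in IgG, without overlap. The log2 difference was 1.85 with an SE of 0.52 and an adjusted p = 0.102 in edgeR, and 5 of 19 alternatives called it (0.0121 to 0.373). Gm16754, a gene on the opposite strand over Keap1 exons, went the other way, at 3.34 CPM in aOX40 against 8.16 CPM in IgG on average. Sqstm1, the autophagy receptor p62 that binds KEAP1, was at 1112, 1070 and 1339 CPM against 694 to 1021 CPM (0.45 on the log2 scale, SE 0.18, adjusted p = 0.240, edgeR).

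The groups overlapped in Sod1, Sod2 and Cat, the dismutases of superoxide and the catalase of hydrogen peroxide. Sod1, the cytosolic dismutase, was low throughout, at 4.53 to 8.48 CPM in aOX40 and 4.11 to 9.44 CPM in IgG. Sod2, the mitochondrial dismutase, ranged from 170 to 730 CPM within IgG, and its aOX40 libraries at 613, 268 and 460 CPM lay inside that range. Cat was at 0.336, 5.33 and 0.998 CPM in aOX40 and at 0.410, 3.45, 0, 0 and 0.195 CPM in IgG. The highest library of each group was also the one with the most haemoglobin messenger RNA: the 4 globin genes summed to 849 CPM in aOX40 replicate 2 and 509 CPM in IgG replicate 3, against 8.11 to 338 CPM in the other 6 libraries. The part of red cell RNA in the Cat values was not tested. Without aOX40 replicate 2 the log2 fold change of Cat turned from 1.45 (SE 1.83) to -0.28.

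**Figure D4:**
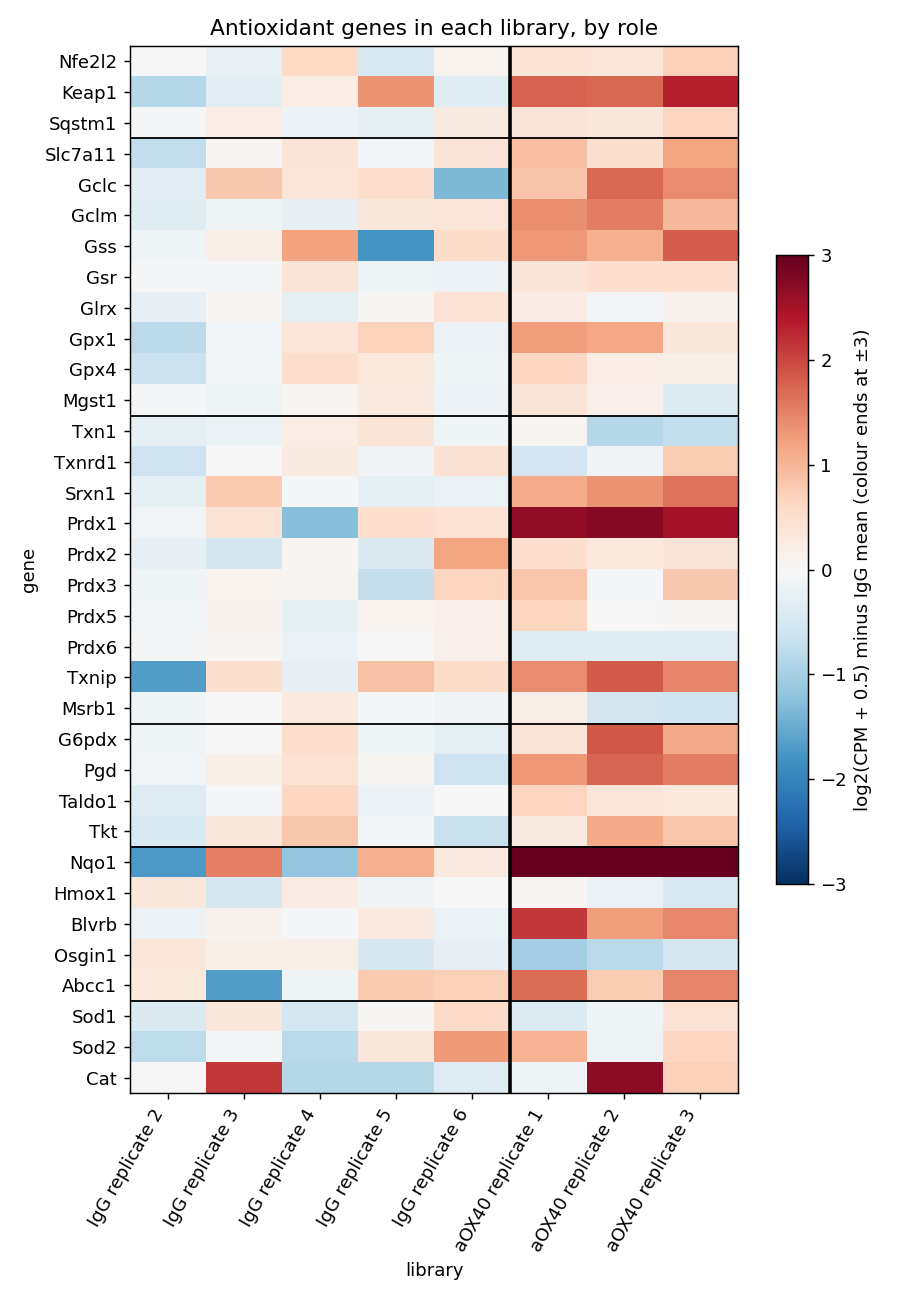
Log2(CPM + 0.5) of 34 members in 8 libraries relative to the IgG mean of each gene, colour ending at ±3, with lines between role groups and between IgG and aOX40. Prdx1 and Nqo1 are high in all 3 aOX40 libraries, Prdx6 and Osgin1 are low in all 3, and Cat is high in IgG replicate 3 and aOX40 replicate 2.

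By role, 4 of the 6 groups held a called gene. Of all genes tested, 0.821% were called higher and 52.1% had a log2 fold change above 0. The list was chosen with this contrast known, so the counts by role are a description only. Glutathione synthesis and use had 1 of 9, with all 9 log2 fold changes above 0 and a median of 0.83. Thioredoxin, peroxiredoxin and methionine sulfoxide genes had 2 of 10 tested, 7 above 0 and 3 below, with a median of 0.27. The NADPH group had 1 of 4 tested and a median of 0.96, and the group of quinone, haem and export genes had 1 of 5, 3 above 0 and 2 below. The 3 regulators and the 3 superoxide and hydrogen peroxide genes had 0 each in the main edgeR fit. Keap1 was called in 5 of 19 alternatives. These were DESeq2, limma voom, and edgeR with legacy set to FALSE, with 10 or more counts in all libraries or without IgG replicate 5. Whether the role groups differed from each other was not tested.

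Members also differed in level. Per kb of exon in IgG, Prdx5 (693 ± 87.3), Hmox1 (396 ± 85.3), Msrb1 (377 ± 46.5) and Gsr (302 ± 50.3) led the list, followed by Prdx6. Hmox1 and Msrb1 differed by less than either SD, and so did Gsr and Prdx6. At the other end were Nqo1 (1.16 ± 1.17), Keap1 (1.14 ± 0.859), Abcc1 (0.974 ± 0.499) and Cat (0.311 ± 0.569), of which Nqo1, Keap1 and Abcc1 differed by less than their SDs. The 5 called genes came from the lower part of this range, between 3.27 for Blvrb and 15.9 for Pgd per kb in IgG. These levels were measured in the IgG libraries of the same comparison and are given as a description.

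**Figure D5:**
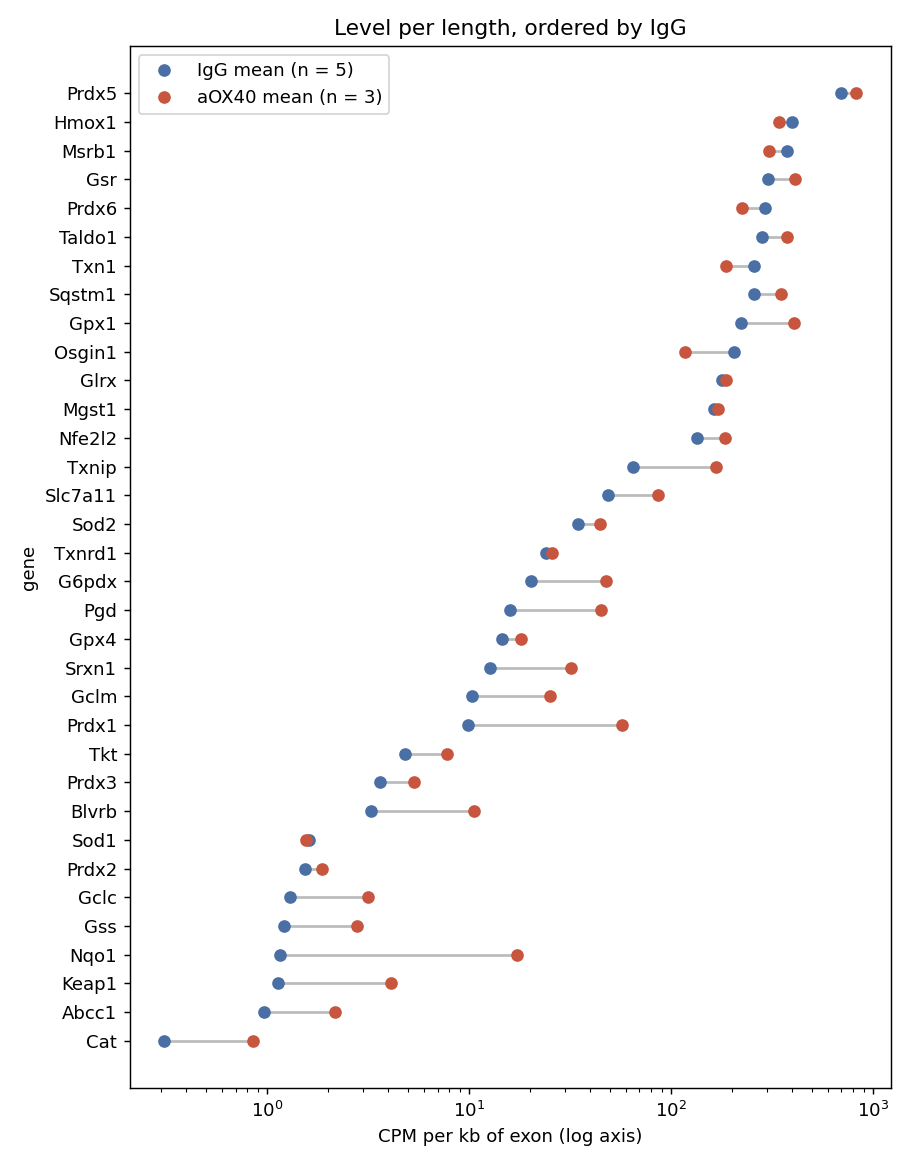
Mean level per kb of exon (log axis) of the 34 members in IgG (blue, n = 5) and aOX40 (red, n = 3), ordered by the IgG mean. Grey lines join the means of a gene; the longest lie in the lower part of the plot, at Nqo1 (1.16 and 17.2) and Prdx1 (9.95 and 57.3).

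The libraries did not order the members in a single way. Among aOX40 libraries, replicate 1 was the highest for 16 of 34 members and replicates 2 and 3 for 9 each. Replicate 1 led for Nqo1 and Blvrb, replicate 2 for Pgd, G6pdx, Gclm and Prdx1, and replicate 3 for Srxn1, Keap1 and Slc7a11. In IgG, replicate 2 was the lowest for 12 members and the highest for 2, while replicates 4 and 6 were the highest for 10 each.

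NRF2 binds with small MAF proteins at the antioxidant response element. Promoter sequence (250 bases upstream of a RefSeq start, GRCm38.p6) was at hand for 31 of the 36 members. The core TGACNNNGC, on either strand, was in 7 of these 31 genes (22.6%), against 11.5% of all 27025 genes with a promoter, and the AP-1 motif TGAGTCA, on either strand, in 4 (12.9%) against 5.16%. A letter match is a description and not a binding site, and no binding was measured. The 7 genes with the core were Prdx1, Gclm, G6pdx, Nfe2l2, Mgst1, Txnrd1 and Sod1, of which Prdx1 and Gclm are among the 5 called. The 4 with the AP-1 motif were Prdx1, Srxn1, Osgin1 and Glrx, of which Osgin1 and Glrx were not called and had log2 fold changes of -0.80 and 0.07. Of the genes with the core, G6pdx, Nfe2l2, Mgst1, Txnrd1 and Sod1 were not called. Their log2 fold changes were 1.23, 0.46, 0.07, 0.09 and -0.06. The sites of 3 called genes and of G6pdx, which did not pass, are shown as examples. They are written 5′ to 3′ on the strand of the gene, with the match in capitals; the first 3 hold the core in reverse complement and the fourth the AP-1 motif.
Prdx1, chr4:116685451-116685489, + strand: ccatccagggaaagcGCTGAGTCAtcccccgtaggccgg
Gclm, chr3:122245408-122245446, + strand: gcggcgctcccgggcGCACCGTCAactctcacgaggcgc
G6pdx, chrX:74428914-74428952, - strand: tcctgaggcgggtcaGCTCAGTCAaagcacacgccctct
Srxn1, chr2:152105464-152105500, + strand: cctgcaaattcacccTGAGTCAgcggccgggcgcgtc
In Prdx1 the core and an AP-1 motif overlap in the same letters, ending 124 bases before the RefSeq start, and a further AP-1 motif ends 230 bases before it. The Gclm match ends 125 bases before the start and the G6pdx match ends 48 bases before it. Srxn1 holds the AP-1 motif ending 38 and 95 bases before the start and no match to the core in this window. Nqo1, Pgd and Blvrb had neither motif in the window searched.

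Further genes of the same pathways, 81 in a list made by function, had 67 rows and 55 tested genes. In edgeR 0 passed in either direction, with 5 higher and 9 lower at an unadjusted p below 0.05 (7.79% and 10% of all genes). DESeq2 called 2 higher and 5 lower (4.17% and 7.83% of the genes it gave an adjusted p), limma voom 1 and 1 (2.52% and 2.93% of all genes), and edgeR with legacy set to FALSE 1 and 2 (2.64% and 3%). The median log2 fold change was 0.36, with 32 above 0 and 23 below. NFE2, a relative of NRF2 that binds the same kind of element, is encoded by Nfe2, which was at 200, 259 and 198 CPM in aOX40 and at 67.1, 109, 140, 130 and 118 CPM in IgG. Its log2 difference of 0.96 had an SE of 0.24 and an adjusted p = 0.0768 in edgeR, and 5 of 19 alternatives called it. Mafk, a small MAF partner, was at 128 ± 61.3 CPM (SD, n = 3) against 302 ± 139 CPM (SD, n = 5). Of the glutathione genes, Gstm1, a transferase, was at 25.7 ± 8.94 against 13.1 ± 3.23 CPM and Ggt1, which cleaves extracellular glutathione, at 25.7 ± 7.39 against 9.93 ± 7.69 CPM. Chac1, which degrades glutathione inside the cell, was at 10.9 ± 3.81 against 22.5 ± 8.73 CPM. Hpgds, a glutathione-dependent prostaglandin D synthase, was at 3.40, 1.97 and 1.15 CPM in aOX40 and at 34.5, 26.1, 12.4, 11.7 and 3.13 CPM in IgG. The log2 difference of -3.01 (SE 0.78) did not pass in edgeR (adjusted p = 0.0816; 0.000250 to 0.373 over the alternatives, 3 of 19 of which called it), and aOX40 replicate 1 lay above IgG replicate 6.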

How the data were processed

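Estimated counts per gene symbol for 8 libraries were deposited by the authors, not scaled between libraries; 63.4% of values were whole within 0.01. Per the submitters' processing notes, STAR 2.6.0, Subread and featureCounts 1.5.1 were used with build mm10; no source used here gives the settings, the annotation or the step that made fractions. Counts were rounded, filtered with filterByExpr (13278 genes), scaled with TMM factors and tested with edgeR 4.0.16 (glmQLFit with its defaults in this version, R 4.3.3). Standard errors came from the F statistic. DESeq2 1.42.0 and limma 3.58.1 (voom) were alternatives, with other scalings and filters, each library left out, and the replicate block; edgeR with legacy set to FALSE, which calls more genes, was added after seeing the data. Both forms had been run and their member calls seen when the default was kept for the reported values. The members and lists were chosen with earlier results of these data known. All members were named whatever their values; of the further genes, those past the threshold and the 6 with the largest fold among the others at a mean of at least 10 CPM. Exon lengths and overlaps came from GENCODE M21 on GRCm38, and near copies (95% identity over 50% of the longest transcript) from BLAST+ 2.17.0. The fit was tested on simulated data. Exclusions were Me1 and, below the count minimum, Prdx4.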

Additional observations from a re-analysis of the deposited data

Results flagged for a closer look

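In each of 40 genes named, the 5 IgG libraries were searched for a library far from the other 4. Such a library was found in 7 genes. The cut-off is passed by about 1 in 20 sets of independent, normally distributed values. CPM were used without a log scale, and genes of the same libraries are not independent. The 7 are therefore listed without comparison to that rate. IgG replicate 4 was far above the other IgG libraries for Gsr (1071 CPM), Taldo1 (910 CPM), Msrb1 (575 CPM) and G6pdx (89.6 CPM). IgG replicate 3 was so for Srxn1 (59.3 CPM) and Cat (3.45 CPM), and IgG replicate 6 for Prdx2 (10.1 CPM).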

How the results depend on the processing

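Of all genes, edgeR called 320, 109 higher and 211 lower. DESeq2 called 1457 (506 and 951), limma voom 724 (335 and 389), legacy set to FALSE 750 (351 and 399), a minimum of 10 counts in all libraries 707 (264 and 443) and no filter 172 (63 and 109). Total counts alone moved the median of all genes from 0.05 to 0.35 and gave 273 higher and 111 lower, so that 71.1% of calls were higher against 34.1%. Members called higher numbered 8 with total counts alone, 8 with legacy set to FALSE and 10 in DESeq2, and members called lower 2 in DESeq2. Further genes called numbered 1 higher and 1 lower with the minimum in all libraries and in limma voom, 2 and 5 in DESeq2, 1 and 2 with legacy set to FALSE, 1 higher with total counts alone and 1 lower with upper quartile factors. With 1 library left out, calls ranged from 0 to 187 of all genes (0 to 74 higher, 0 to 113 lower), from 0 to 3 members higher, and from 0 to 1 further genes higher. With the replicate block edgeR called 0 genes, 0 higher and 0 lower, and 0 members (1769 of all genes at an unadjusted p below 0.05). Only the numbers 2 and 3 occur in both groups. Deviations from the group mean had r = 0.022 and 0.047 between same-numbered libraries. Against IgG libraries of other numbers, r was -0.043 to 0.013 for aOX40 replicate 2 and -0.044 to 0.031 for aOX40 replicate 3. With a single pair per number, these values cannot decide whether same-numbered libraries share a batch or day. Directions turned for 7 members, none of them called: Hmox1 (0.10) and Sod1 (0.23) with total counts alone, and Mgst1 (-0.024), Prdx5 (-0.0067) and Sod1 (0.21) with the block. With 1 library left out the log2 difference ran from -0.00090 to 0.20 for Glrx, from -0.10 to 0.28 for Mgst1, from -0.36 to 0.36 for Txnrd1, from -0.35 to 0.12 for Sod1 and from -0.28 to 3.86 for Cat. The cause of these changes was not tested. The spread between libraries limits what folds can pass. Its common estimate over all genes tested was a biological coefficient of variation of 84.7%, which does not describe single members.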
